A study of Mus musculus with 6 samples.

Results

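The 9 transcription factors examined here set up and keep the microglial lineage: Spi1, Irf8, Irf5, Sall1, Sall3, Mef2a, Mef2c, Runx1 and Cebpa. They were taken by gene symbol from the deposited gene table, which gave 9 of 9 members among 55414 genes. The RNA came from microglia, macrophages that reside in the brain, of adult 10-month-old C57BL/6 mice. One group was wild type (WT, 3 libraries) and the other was labelled Selk-/-, a knockout of the selenoprotein gene Selenok (3 libraries). The labels name no other allele or treatment, and they do not say how the knockout was made or how the cells were isolated. Nor do they tie a library to 1 animal, so the p-values speak only for the spread among these libraries, part of which may be technical.

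Microglia arise from yolk sac progenitors, in which RUNX1 (a runt-domain factor) and PU.1 (the ETS-family product of Spi1) open the myeloid programme. IRF8, an interferon regulatory factor, binds DNA together with PU.1 and is needed for microglial maturation, and IRF5, a relative of IRF8, drives inflammatory genes downstream of Toll-like receptors. The zinc finger factor SALL1 is, among brain macrophages, a defining factor of microglia, and its relative SALL3 is also present in these cells. MEF2A and MEF2C are MADS-box factors whose binding sites are common in microglial enhancers, and MEF2C is known to restrain microglial inflammatory responses. C/EBP alpha, the product of Cebpa, is a basic leucine zipper factor of myeloid differentiation that acts with PU.1 at macrophage enhancers.

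Total counts per library ran from 21112082 to 28123871, and 3 counts corresponded to 0.107 to 0.142 CPM (counts scaled to the same total in every library), so each of the 9 factors was far above this floor. The knocked-out gene did not check the labels: Selenok stood at 119 ± 6.57 CPM in WT and 110 ± 2.19 CPM in Selk-/- (SD, n = 3 each; edgeR adjusted p = 0.381). A deletion inside a gene need not show in its total, and whether there was one here is not known. The 10 microglia markers, among them P2ry12, Tmem119 and Siglech, were present in every library and summed to 22478 to 28158 CPM. Small nucleolar RNA genes held 318 to 327 CPM in 4 libraries but 46.0 and 54.9 CPM in Selk-/- replicates 2 and 3. Neutrophil markers summed to 6056 CPM in Selk-/- replicate 2 and to 426 to 1210 CPM in the other 5 libraries. Directions below are between libraries labelled Selk-/- and WT.

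RefSeq promoter windows, 250 bases before to 50 bases after an annotated start, were matched by symbol for 7 of the 9 factors (13 windows, build GRCm38.p6), and not for Spi1 and Sall3. These 3 are shown as examples from factors that were lower in Selk-/- (Irf8 and Mef2c) or higher (Runx1), and windows of other such factors are not shown. Each is only 1 of the windows of its gene and does not stand for the others. Capitals mark matches, on either strand, to the short binding motifs searched: GAGGAA for PU.1, TGTGGT for RUNX and TTGCNNAA for C/EBP, none of which contains another.
Irf8, chr8:120736108-120736407, plus strand: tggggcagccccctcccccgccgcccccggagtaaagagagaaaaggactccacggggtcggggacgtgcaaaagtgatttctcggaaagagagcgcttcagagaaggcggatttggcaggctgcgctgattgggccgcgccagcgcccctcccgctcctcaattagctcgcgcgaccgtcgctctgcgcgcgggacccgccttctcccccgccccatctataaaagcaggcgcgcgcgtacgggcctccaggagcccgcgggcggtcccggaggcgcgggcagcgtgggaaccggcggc
Mef2c, chr13:83503784-83504083, plus strand: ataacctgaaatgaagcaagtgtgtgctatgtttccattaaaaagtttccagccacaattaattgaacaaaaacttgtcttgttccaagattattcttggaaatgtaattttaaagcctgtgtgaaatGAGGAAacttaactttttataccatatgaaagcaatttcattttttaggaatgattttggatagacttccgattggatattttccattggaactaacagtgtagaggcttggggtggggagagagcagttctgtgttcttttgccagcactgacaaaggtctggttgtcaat
Runx1, chr16:92826025-92826324, minus strand: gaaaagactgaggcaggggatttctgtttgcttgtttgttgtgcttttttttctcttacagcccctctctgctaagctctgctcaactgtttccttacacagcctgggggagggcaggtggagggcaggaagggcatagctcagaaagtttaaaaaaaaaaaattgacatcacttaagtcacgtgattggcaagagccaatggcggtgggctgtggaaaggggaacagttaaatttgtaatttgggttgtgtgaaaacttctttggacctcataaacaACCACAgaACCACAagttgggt
Positions are counted from 1 at the 5′ end of each window. The Runx1 window held TGTGGT at 279 to 284 and again at 287 to 292, both on the strand opposite to the gene, just inside the transcribed part. This motif of the factor's own family occurred in 16.8% of 32851 promoter windows. The Mef2c window held GAGGAA at 129 to 134, a motif found in 28.3% of windows, and was poor in G and C (35.7%). The Irf8 window was rich in G and C (70%, against 45% for the Runx1 window) and held none of the 3 motifs, which says only that these letters are not in this window. The windows at other starts of these genes differed, with 54.7% G and C for Irf8, 47% and 48.3% for Mef2c and 69% for Runx1. That other Runx1 window held GAGGAA and no TGTGGT, and the Mef2c window of 47% held GAGGAA. Of the 13 windows 5 held a match. The windows of Irf5, Sall1 and Cebpa held none, while that of Mef2a, whose groups overlapped, held GAGGAA at 137 to 142 and at 148 to 153. Matches therefore do not sort the factors by direction. A match in a window is a description of letters and not evidence of binding.

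The level of each factor per transcript length is given by the deposited FPKM (fragments scaled by transcript length and library depth). Cebpa was the most abundant, at 147 ± 17.0 FPKM in WT and 165 ± 3.42 FPKM in Selk-/- (SD, n = 3 each). Irf8 followed at 99.2 ± 10.3 and 78.4 ± 6.29 FPKM, and Spi1 at 92.7 ± 9.37 and 69.2 ± 1.71 FPKM. Below them came Mef2a, Irf5, Sall1 and Mef2c, with means over the 6 libraries of 72.9, 71.6, 66.4 and 59.9 FPKM. Runx1 was at 15.1 ± 1.45 and 17.7 ± 1.43 FPKM, and Sall3, the least abundant, at 8.65 ± 0.791 and 8.26 ± 0.762 FPKM.

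Only 3 of the 8 steps in this order were wider than the spread over libraries: Cebpa over Irf8, Mef2c over Runx1, and Runx1 over Sall3. From Irf8 down to Mef2c each factor overlapped its neighbour. Irf8 nevertheless exceeded Spi1 within 6 of 6 libraries, while Spi1 exceeded Mef2a in 3 of 6, the 3 WT libraries. Among 13639 genes with a mean of at least 1 FPKM, Cebpa lay at percentile 97.4, Mef2c at 93.0, Runx1 at 70.7 and Sall3 at 50.8.

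**Figure D1:**
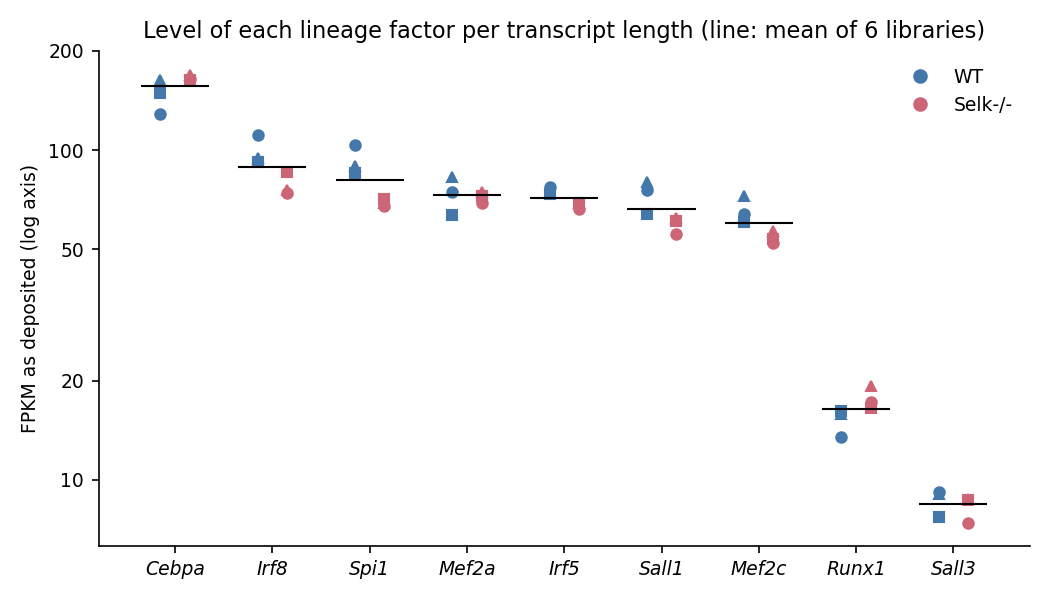
Deposited FPKM of the 9 lineage factors on a log axis, ordered by the mean over 6 libraries (black line); circles, squares and triangles are replicates 1, 2 and 3. Cebpa lies above the rest, Irf8 to Mef2c form a band from 52.4 to 111 FPKM, and Runx1 and Sall3 lie below it.

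Spi1, Irf8, Sall1 and Mef2c had lower counts in Selk-/- at an unadjusted p under 0.05 and Runx1 had higher counts, while Irf5, Sall3, Mef2a and Cebpa did not reach this level. None of the 9 passed adjustment over all 17739 genes tested with edgeR. The background share of called genes was 0% at edgeR adjusted p 0.05. At unadjusted p 0.05 it was 19.1%, with 9.74% lower and 9.34% higher. DESeq2 called Spi1 and Irf8 lower and no factor higher, against a background of 9.15% called (3.88% lower, 5.27% higher) among 11535 genes with an adjusted p. Among the 2979 genes in the factors' own CPM range, the background was 32.6% at edgeR unadjusted p 0.05 and 16.7% for DESeq2. The 5 of 9 and 2 of 9 factors are to be read against those shares. The log2 fold change was below 0 for 7 of the 9 factors and for 51.3% of all genes tested.

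**Figure D2:**
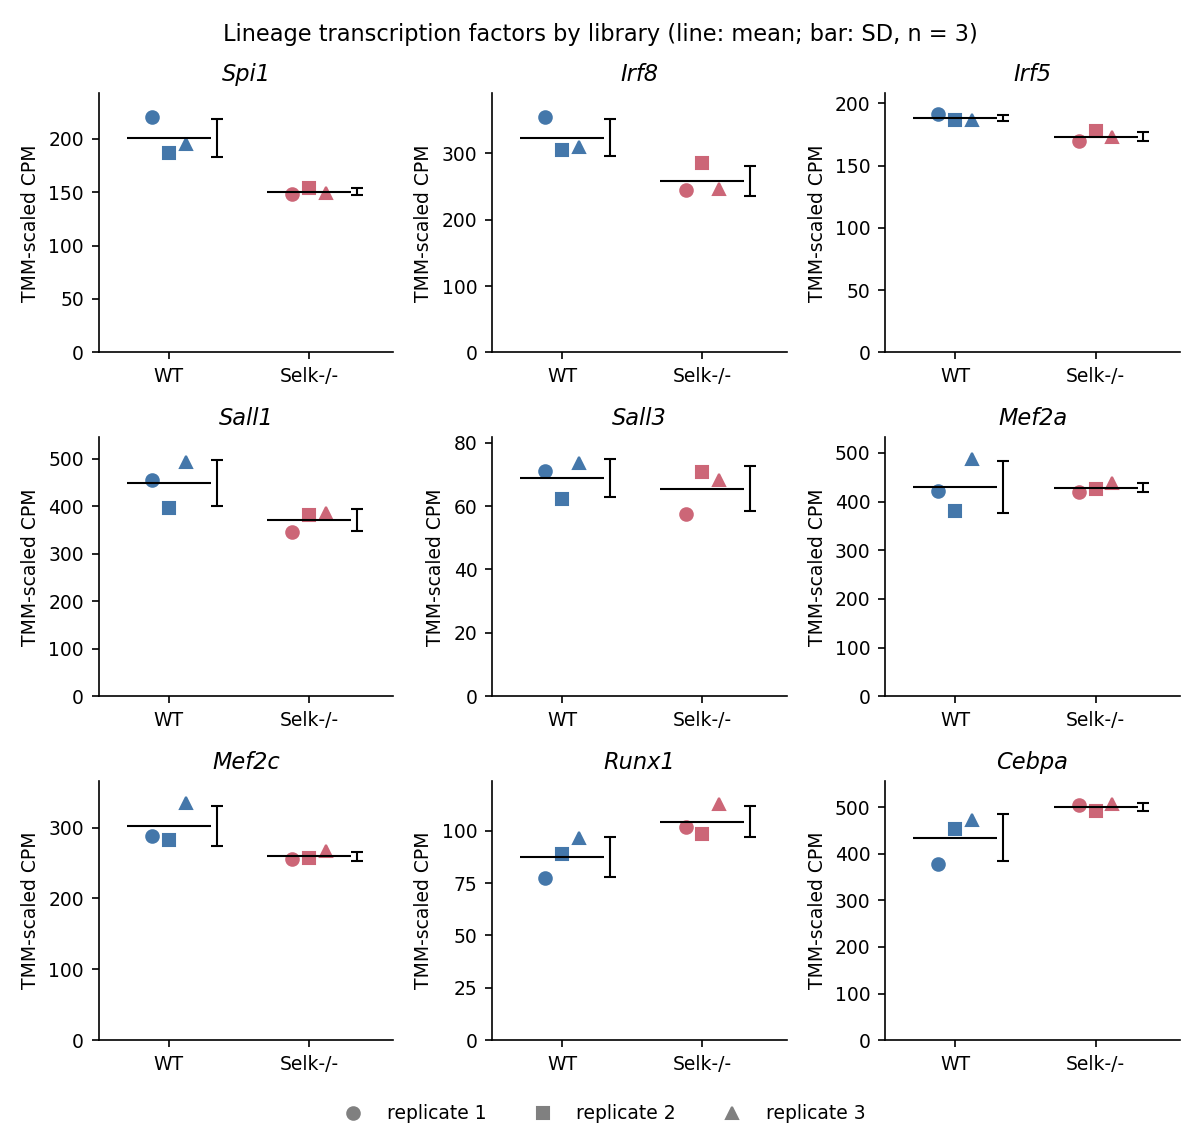
CPM scaled by TMM (trimmed mean of M values) for the 9 lineage factors in each library; circles, squares and triangles are replicates 1, 2 and 3, lines are group means and bars are SD (n = 3). For Spi1 the 3 Selk-/- libraries lie between 148 and 154 CPM, below all WT libraries (186 to 221 CPM); Sall3 and Mef2a overlap between groups.

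Spi1 (ENSMUSG00000002111, chromosome 2, 90912735 to 90946101 in the deposited table) encodes PU.1, the factor on which the whole macrophage lineage depends. It was at 221, 186 and 195 CPM in WT replicates 1 to 3 against 148, 154 and 149 CPM in Selk-/- replicates 1 to 3. All Selk-/- libraries were below all WT libraries, and the Selk-/- values lay close together. The means were 201 ± 17.8 and 150.3 ± 3.2 CPM (SD over 3 libraries each). The log2 fold change between them was -0.42 (SE 0.081), with a 95% interval of -0.60 to -0.23. This ranked 156th of 17739 genes by p (edgeR adjusted p = 0.105, unadjusted p = 0.000971; DESeq2 adjusted p = 0.00067). With each library left out in turn the log2 fold change stayed between -0.46 and -0.34 (edgeR adjusted p 0.111 to 0.266).

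Irf8 (ENSMUSG00000041515, chromosome 8, 121463097 to 121483433 in the deposited table), the partner of PU.1 at composite ETS and IRF sites, was at 355, 304 and 310.0 CPM in WT against 245, 285 and 246 CPM in Selk-/-. The groups did not overlap. The highest Selk-/- value was in replicate 2, the library with high sums of neutrophil markers and of monocyte and dendritic markers. That library was also low in small nucleolar RNA (46.0 CPM), and the part of either in its Irf8 value was not tested. Irf8 had a log2 fold change of -0.32 (SE 0.095; edgeR adjusted p = 0.153, DESeq2 adjusted p = 0.034), and it was -0.38 without Selk-/- replicate 2 (edgeR adjusted p = 0.215). Irf5 (ENSMUSG00000029771, chromosome 6, 29526624 to 29541870 in the deposited table) was at 191, 187 and 187 CPM in WT against 169.7, 177 and 173 CPM in Selk-/-. These groups also did not overlap, but the difference was small, with a log2 fold change of -0.12 (95% interval -0.26 to 0.023; edgeR adjusted p = 0.331). The last 1045 bases of the Irf5 locus overlap Tnpo3 on the opposite strand, and no source used here says how strands were handled, so the Irf5 count is uncertain by that part.

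Sall1 (ENSMUSG00000031665, chromosome 8, 89753863 to 89770790 in the deposited table), the factor that marks microglia among brain macrophages, was at 456, 397 and 493 CPM in WT against 345, 381 and 386 CPM in Selk-/-. The groups were separate, though WT replicate 2 and Selk-/- replicate 3 lay close to each other. Sall1 had a log2 fold change of -0.28 (95% interval -0.50 to -0.048, SE 0.098; edgeR adjusted p = 0.196, DESeq2 adjusted p = 0.0807). Sall3 (ENSMUSG00000024565) was at 70.9, 62.2 and 73.5 CPM in WT against 57.4, 70.7 and 68.3 CPM in Selk-/-. The groups overlapped, and the log2 fold change of -0.074 (95% interval -0.31 to 0.16; edgeR adjusted p = 0.720) turned to 0.025 without Selk-/- replicate 1.

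Mef2c (ENSMUSG00000005583, chromosome 13, 83652153 to 83815199 in the deposited table) was at 288, 283 and 334 CPM in WT against 255, 257 and 266 CPM in Selk-/-. Every Selk-/- library was below every WT library. Mef2c had a log2 fold change of -0.22 (SE 0.084; edgeR adjusted p = 0.225, DESeq2 adjusted p = 0.125), and it was -0.13 without WT replicate 3, the highest library. Mef2a (ENSMUSG00000030557, chromosome 7, 66880911 to 67022606 in the deposited table) was at 423, 379.8 and 487 CPM in WT against 421, 426 and 439 CPM in Selk-/-. The 3 Selk-/- values lay inside the WT range, and the log2 fold change of -0.0049 (95% interval -0.23 to 0.22; edgeR adjusted p = 0.985) changed sign with the scaling of the libraries (0.0024 with DESeq2 size factors). Mef2a shares its locus with Lysmd4 on the opposite strand and with 2 unconfirmed transcripts, which held at most 236 counts in a library.

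Runx1 and Cebpa were higher in Selk-/-. Runx1 (ENSMUSG00000022952, chromosome 16, 92398354 to 92623037 in the deposited table) was at 77.3, 88.7 and 96.4 CPM in WT against 102, 98.7 and 113 CPM in Selk-/-. The groups were separate by a narrow gap, between WT replicate 3 and Selk-/- replicate 2. The log2 fold change was 0.25 (95% interval 0.031 to 0.48, SE 0.096; edgeR adjusted p = 0.219, DESeq2 adjusted p = 0.115), and it ranged from 0.17 to 0.34 with 1 library left out. Cebpa (ENSMUSG00000034957, chromosome 7, 34818718 to 34821353 in the deposited table) was at 379, 453 and 473 CPM in WT against 504, 492 and 506 CPM in Selk-/-. All Selk-/- libraries were above all WT libraries, with WT replicate 1 well below the other 5. The log2 fold change was 0.20 (95% interval -0.016 to 0.42, SE 0.095; edgeR adjusted p = 0.293, DESeq2 adjusted p = 0.159), and without WT replicate 1 it was 0.11. Genes on the opposite strand overlap both loci but held at most 5 counts (at Runx1) and 26 counts (at Cebpa) in a library.

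Counted over the 9 factors, the groups did not overlap in 7 (5 lower, 2 higher in Selk-/-). The background of no overlap was 26.2% of the genes tested (13.7% lower, 12.5% higher), and 38.2% of genes in the factors' CPM range. The SD was larger in WT than in Selk-/- for 7 of 9 factors, all but Irf5 and Sall3; for Cebpa it was 49.7 and 7.82 CPM, and for Mef2a 54.1 and 9.26 CPM.

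**Figure D3:**
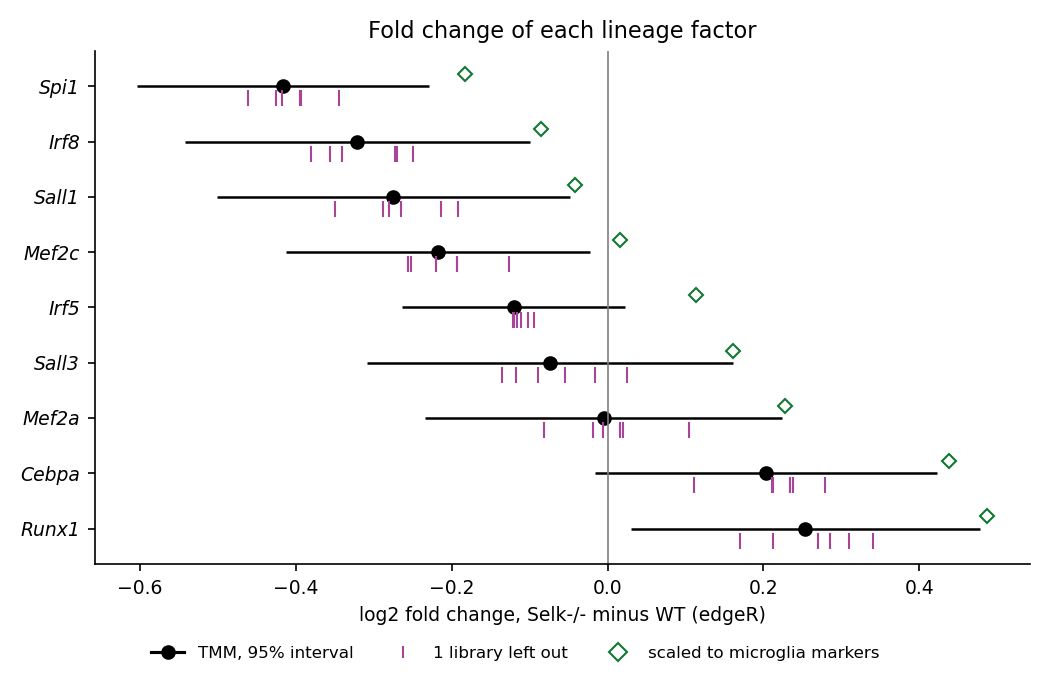
Log2 fold change of each lineage factor, Selk-/- minus WT, from edgeR: black points with 95% intervals use TMM scaling, purple ticks leave out 1 library each, and open green diamonds scale each library to its summed microglia markers. Spi1 has the lowest value (-0.42) and Runx1 the highest (0.25); the diamonds lie to the right of the points because the marker sum itself was lower in Selk-/-.

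Close relatives can be compared within a library as a ratio of counts, which no scaling of libraries changes. The ratio of Irf8 to Irf5 was 1.86, 1.63 and 1.66 in WT and 1.44, 1.61 and 1.42 in Selk-/-. That of Sall1 to Sall3 was 6.42, 6.38 and 6.71 in WT and 6.02, 5.39 and 5.65 in Selk-/-. That of Mef2c to Mef2a was 0.681, 0.745 and 0.686 in WT and 0.606, 0.603 and 0.607 in Selk-/-. In each pair the first-named factor is the one with the lower log2 fold change above. Relative to the second-named factor, it was smaller in all 3 Selk-/- libraries than in any WT library. The differences in log2 ratio were -0.20 (Irf8 to Irf5), -0.20 (Sall1 to Sall3) and -0.22 (Mef2c to Mef2a). Each had a two-sided exact permutation p of 0.1, also when adjusted over the 3 ratios, which is the smallest that 3 against 3 libraries allow. The ratios were added after the values were seen, so their shared direction restates the fold changes and is not separate evidence. No share over other gene pairs was counted.

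**Figure D4:**
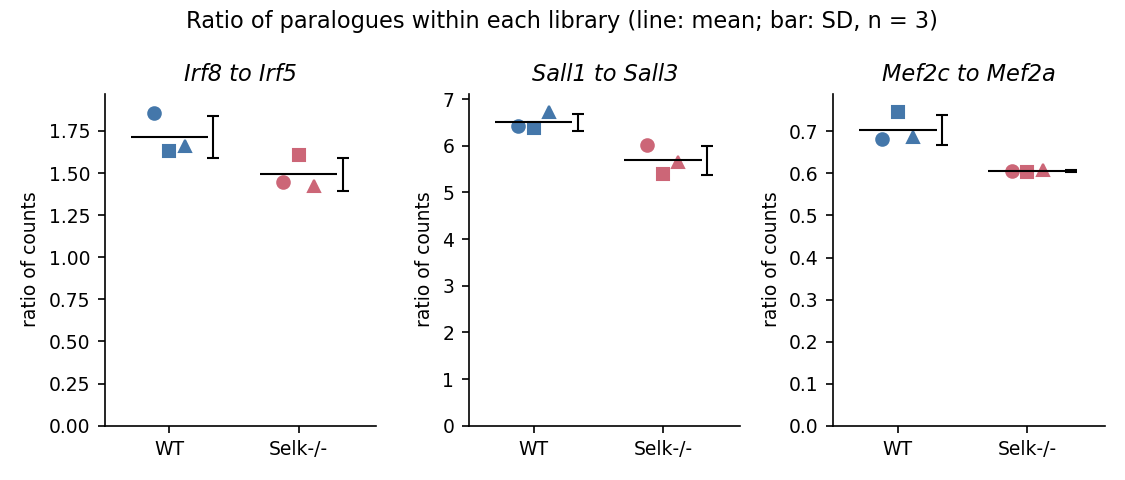
Ratio of the counts of Irf8 to Irf5, Sall1 to Sall3 and Mef2c to Mef2a in each library; circles, squares and triangles are replicates 1, 2 and 3, lines are group means and bars are SD (n = 3). In all 3 panels the Selk-/- libraries lie below the WT libraries, with Mef2c to Mef2a at 0.603 to 0.607 against 0.681 to 0.745.

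The deposited count and FPKM of a gene imply the transcript length used for it. For Mef2c, whose transcripts start at several annotated positions, this length was 4606 to 4632 bases in WT and 4696 to 4822 bases in Selk-/-, without overlap. The other 8 factors overlapped between groups. The background of no overlap in this length was 14.5% of 13499 genes, so 1 of 9 is near it. For Runx1 the implied length varied among WT libraries from 5455 to 6071 bases. Which transcripts contributed cannot be read from gene totals.

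The microglia markers differed between the groups along with the factors. Their sum was 27117, 28158 and 27214 CPM in WT and 24036, 22478 and 23659 CPM in Selk-/-, a log2 difference of -0.23 (two-sided exact permutation p = 0.1, the smallest possible). All 10 of 10 markers had a log2 fold change below 0, as had 51.3% of all genes tested. For 6 of them every Selk-/- library was below every WT library, against 13.7% of all genes. In bulk RNA fewer cells of a type and less RNA per cell cannot be told apart. Per 100 microglia marker counts, Spi1 had 0.813, 0.661 and 0.718 counts in WT and 0.616, 0.685 and 0.63 in Selk-/-, so the groups overlapped. Irf8, Sall1, Sall3, Mef2a and Mef2c overlapped on this scale as well. Cebpa had 1.396, 1.61 and 1.74 counts in WT and 2.098, 2.19 and 2.14 in Selk-/-. Runx1 had 0.285, 0.315 and 0.354 in WT and 0.423, 0.439 and 0.477 in Selk-/-, so both stayed higher without overlap. Irf5 was higher as well, by a narrow gap (at most 0.7058 in WT, at least 0.7062 in Selk-/-). How many of all genes did not overlap on this scale was not counted.

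Scaling to this sum moved the median log2 fold change over all genes from -0.0082 to 0.23. With it, 3506 of 17739 genes passed edgeR adjusted p 0.05, and the 2 factors that passed are to be read against that share. On that scale Spi1 was at -0.18 (edgeR adjusted p = 0.210), Runx1 at 0.49 (edgeR adjusted p = 0.0186) and Cebpa at 0.44 (edgeR adjusted p = 0.0227). Relative to the shifted median they were at -0.41, 0.26 and 0.21, which are the values found with TMM scaling to within a rounding step. Irf5, Sall3, Mef2a and Mef2c changed sign on this scale, to 0.11, 0.16, 0.23 and 0.016. The markers include known targets of the factors themselves, such as Csf1r and Cx3cr1.

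Other cells in a brain preparation also make some of these factors: neutrophils and monocytes express Spi1, Runx1 and Cebpa, monocytes and dendritic cells Irf8, and endothelial cells and neurons Mef2c. Border macrophage markers summed to 787 to 1149.7 CPM in WT and 357 to 723 CPM in Selk-/-, and none was at 0 throughout. The log2 fold change was below 0 for 11 of 11 (51.3% of all genes). For 7 of them every Selk-/- library was below every WT library (13.7% of all genes). Endothelial markers summed to 3366 to 4183 CPM in WT and 3909 to 5303 CPM in Selk-/-, and neutrophil markers to 496 to 1210.1 and 426 to 6056 CPM. The mean of each of the 12 neutrophil markers was above WT with all libraries, but that of only 4 of 12 without Selk-/- replicate 2, whose 2 fellow libraries had sums of 426 and 1097 CPM. Monocyte and dendritic markers summed to 164 to 197 CPM in WT and 117 to 632 CPM in Selk-/-, with 5 lower and 6 higher of 11 tested. B cell markers summed to 207 to 246 CPM in WT and 162 to 172 CPM in Selk-/-, without overlap. Of 6 B cell markers tested, 5 were lower and 1 higher. Neuron markers were low, at 29.0 to 36.5 CPM. Without Selk-/- replicate 2 the log2 fold changes of Spi1, Runx1 and Cebpa were -0.42, 0.31 and 0.23, beside -0.42, 0.25 and 0.20 with it. Leaving out 1 library does not settle the part of neutrophils, as the other libraries hold their markers too. The part of neutrophils, border macrophages, endothelial cells, monocytes, dendritic cells and B cells in the factors' values was not tested. With the small nucleolar RNA split as a block, which rests on Selk-/- replicate 1 alone, Spi1 was at -0.44, Irf8 at -0.40, Sall1 at -0.38, Sall3 at -0.26, Runx1 at 0.22 and Cebpa at 0.21 (edgeR adjusted p 0.368 to 0.640 for these 6).

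A list of 31 genes related to the factors by family or symbol (ETS, IRF, SALL, MEF2, RUNX and C/EBP), which does not hold every member of these families, lay on both sides: of 29 tested, 13 were lower and 16 higher, with a median log2 fold change of 0.020, against -0.12 for the 9 lineage factors and -0.0082 for all genes. At edgeR unadjusted p 0.05, 4 were lower and 3 higher, and 0 passed adjustment over all genes. Cebpz, listed for its symbol, encodes a CCAAT-binding protein without the leucine zipper of the C/EBP family, and without it 13 were lower and 15 higher of 28, with a median of 0.010. Among the smallest p were those of Cebpz (0.29, 101 ± 4.87 to 123 ± 8.59 CPM) and Cebpd (0.41, 159 ± 31.2 to 210.2 ± 5.47 CPM; SD, n = 3 each), a C/EBP factor of the acute-phase response. DESeq2 called Cebpz and Cebpd (adjusted p = 0.021 and 0.0272). Irf1 and Ets1, the most abundant, were at 0.070 and 0.047. Cebpe, a factor of granulocyte maturation named after its values were seen, was at 0.994, 0.643 and 1.36 CPM in WT against 0.733, 8.12 and 1.80 CPM in Selk-/-, high in the library with the high neutrophil marker sum.

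Protein partners of the factors, such as CBF beta (partner of RUNX1), class II histone deacetylases (partners of MEF2) and the NuRD complex (bound by SALL1), had 10 lower and 13 higher of 23 tested, with a median of 0.0078. The smallest p belonged to the NuRD subunit Mbd3 (-0.26, 84.9 ± 4.02 to 71.1 ± 2.34 CPM), the deacetylase Hdac2 (0.31, 57.1 ± 5.15 to 70.6 ± 2.40 CPM) and Batf3 (-0.33, 12.1 ± 0.139 to 9.63 ± 1.20 CPM; SD, n = 3 each), and Jun and Chd4, the most abundant, were at -0.12 and -0.16. None of the 23 passed the edgeR threshold adjusted over all genes (4 at unadjusted p 0.05), and DESeq2 called Mbd3 and Hdac2 (adjusted p = 0.039 and 0.0282). Other myeloid transcription factors had 15 lower and 23 higher of 38 tested, with a median of 0.042. The haematopoietic helix-loop-helix factor Lyl1 was at -0.44 (87.2 ± 8.81 to 64.5 ± 1.64 CPM), its partner Lmo2 at -0.26 (216 ± 4.83 to 181 ± 0.845 CPM) and the early response factor Egr2 at 0.50 (140.0 ± 19.5 to 199 ± 26.0 CPM; SD, n = 3 each). Their edgeR adjusted p were 0.105, 0.117 and 0.126, and DESeq2 called all 3 (adjusted p = 0.00199, 0.00514 and 0.00501). Fos and Egr1, the most abundant, were at 0.097 and 0.053.

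Genes known as targets of the factors were read in 4 lists. Counts in these and the preceding lists are to be read against the shares over all genes. Those were 19.1% at edgeR unadjusted p 0.05 (9.74% lower, 9.34% higher), 9.15% called by DESeq2 and 26.2% without overlap. In the factors' CPM range they were 32.6%, 16.7% and 38.2%. At edgeR unadjusted p 0.05 the share was 25.9% of the PU.1 targets and 22.7% of the IRF8 and IRF5 targets. PU.1 targets of myeloid cells had 19 of 27 lower, a median of -0.095, and 7 lower and 0 higher at edgeR unadjusted p 0.05. Cyba, a subunit of the phagocyte NADPH oxidase, was at -0.61 (267 ± 37.2 to 175 ± 9.17 CPM; edgeR adjusted p = 0.105, DESeq2 adjusted p = 4.2e-05). Csf1r, the receptor for the survival signal CSF1, was at -0.23 (5664 ± 377 to 4844 ± 140.2 CPM; edgeR adjusted p = 0.184, DESeq2 adjusted p = 0.0484), and the perforin-like Mpeg1 at -0.10. IRF8 and IRF5 targets had 10 lower and 12 higher of 22, with a median of 0.055. At edgeR unadjusted p 0.05, 4 of them were lower and 1 higher, and the groups did not overlap for 4 lower and 3 higher. The fractalkine receptor Cx3cr1 was at -0.53 (2851 ± 222 to 1977 ± 38.2 CPM) and the cytokine Il6 at 0.64 (12.3 ± 1.84 to 19.2 ± 2.04 CPM; SD, n = 3 each), the 2 genes that DESeq2 called, while the most abundant targets, Cst3 and the protease Ctss, were at -0.093 and 0.17.

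Genes that depend on SALL1 in mouse microglia were all lower, 19 of 19 tested, with a median of -0.28, 10 of them at edgeR unadjusted p 0.05 and 0 past adjustment over all genes. DESeq2 called 8 of the 19, all lower, among them Cx3cr1 (adjusted p = 2.5e-07) and P2ry13 (adjusted p = 8.5e-05). Over all genes DESeq2 called 9.15% (3.88% lower), and 19.1% had an edgeR unadjusted p under 0.05 (9.74% lower). Of the 19 genes tested 8 are also among the 10 microglia markers, and 3 are also in the IRF list, so these counts are not separate evidence. Cx3cr1 and P2ry13 (-0.38, 833 ± 26.6 to 641 ± 35.2 CPM) had the smallest p. Genes that are higher in mouse microglia without SALL1 were lower too, 13 of 17, with a median of -0.18. Among them the matrix protein Spp1 was higher (0.41, 42.2 ± 1.74 to 56.0 ± 2.13 CPM), whereas Apoe (-0.55, 2848 ± 463 to 1949 ± 301 CPM), the protease Ctsb (-0.22, 2208 ± 33.9 to 1900.2 ± 94.0 CPM) and the class II chain H2-Ab1 (-0.83, 312 ± 44.2 to 176 ± 38.2 CPM; SD, n = 3 each) were lower. DESeq2 called these 4 genes (adjusted p of 0.034 or less), and edgeR did not (adjusted p 0.105 to 0.175). Border macrophages, whose markers were lower in Selk-/- (357 to 723 CPM against 787 to 1149.7 CPM in WT), also express Apoe and class II genes, and their part in these values was not tested.

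**Figure D5:**
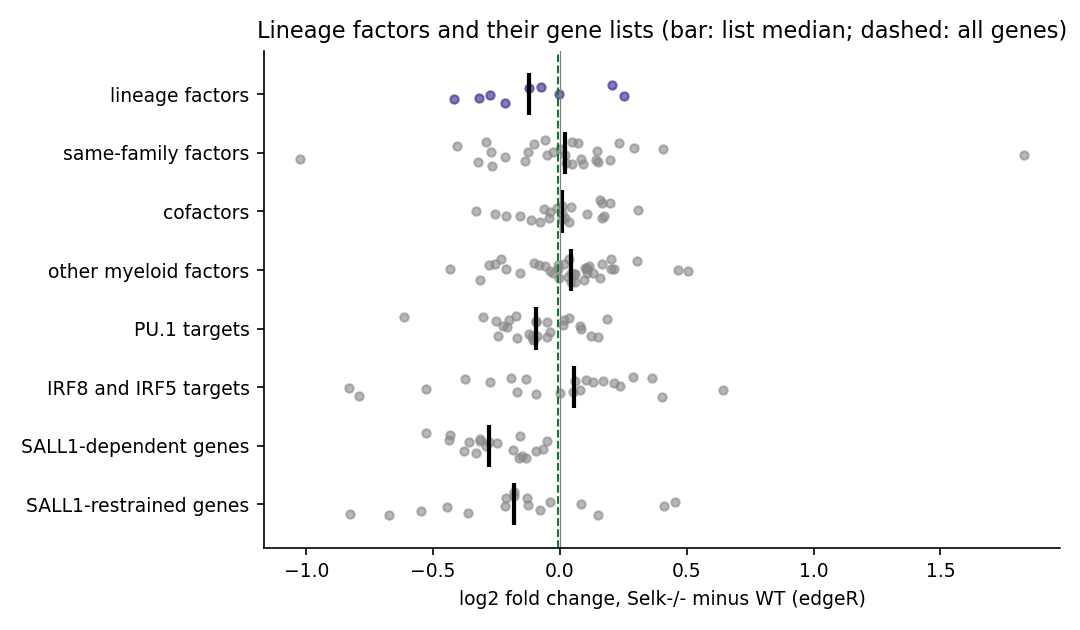
Log2 fold change, Selk-/- minus WT (edgeR), of each tested gene in the lineage factors and 7 gene lists; black bars are list medians and the dashed green line is the median of all 17739 genes. Genes dependent on SALL1 all lie below 0 (median -0.28), while same-family factors, cofactors and other myeloid factors lie on both sides with medians of 0.020, 0.0078 and 0.042.

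Spi1, Irf8 and Sall1 varied most over the 6 libraries among the factors (SD of log2 CPM 0.240, 0.207 and 0.187). The genes with the most similar profile were found by the root-mean-square difference between centred log2 CPM over the 6 libraries, among 10033 genes with a mean of at least 10 CPM. For Spi1 they were Cryl1 (0.032), Oaz1 (0.036) and its pseudogene Oaz1-ps (0.040), which may share reads with Oaz1. For Irf8 they were Arhgap9 (0.032), Sord (0.035) and Liph (0.037). For Sall1 they were Hpgds (0.026), its own relative Sall2 (0.038) and Sfmbt1 (0.039). All 9 were lower in Selk-/-, as a match to these profiles requires, and 11 to 15 genes came within 0.05 of each factor.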

How the data were processed

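RNA from microglia was sequenced in 6 libraries, 3 per genotype. Hisat2 2.0.5 (alignment) and stringtie 2.2.0 (gene quantification) were used by the authors, per the labels' protocols; Bowtie 0.12.2, mm8 and mm9 stand in the submitters' processing notes instead. The authors deposited raw counts and FPKM for each gene, per the file headers. The build of this table, the use of strand and the treatment of multi-mapped reads are not given in these sources. Gene positions are printed as the table gives them, and promoter positions, from RefSeq on GRCm38.p6, are not comparable with them.

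The test of the counts used edgeR 4.0.16 under R 4.3.3 (scaling by TMM, filterByExpr, robust quasi-likelihood F test, two-sided, Benjamini-Hochberg over 17739 of 33412 genes with any count, threshold 0.05). Standard errors come from the F statistic. DESeq2 1.42.0 and limma 3.58.1 were alternatives, with other scalings, filters and libraries left out; FPKM were tested as log2(FPKM + 1) or log2(FPKM + 0.1). The steps were tested on simulated data, in which the planted changes were larger than those of the factors, so changes of their size were not covered. Named genes are the 9 factors, the 3 genes with the smallest p (2 for target lists) and the 2 most abundant of each list, and for likeness 3 genes for each of the 3 most variable factors; some genes that this rule takes are not reported here. Members and lists were chosen with earlier results of these data known. Replicate numbers follow the order of the samples and pair nothing.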

Additional observations from a re-analysis of the deposited data

How the results depend on the processing

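Adjusted p 0.05 was passed by 0 genes with edgeR, by 92 among genes with at least 10 CPM in 3 libraries, by 1056 with DESeq2, by 1 with limma-voom and by 0 to 59 with each library left out (59 without Selk-/- replicate 1, 1 without Selk-/- replicate 2); 3383 genes had an unadjusted p under 0.05. Of the 9 factors 0 passed, 2 with DESeq2 (Spi1 at -0.41 and Irf8 at -0.31). Of the other listed factors and targets 0 passed, and 23 with DESeq2. Factors at unadjusted p 0.05 numbered 5, and 2 to 4 with each library left out (3 without WT replicate 1 or Selk-/- replicate 1, 2 without Selk-/- replicate 3), 2 without the libraries titled with 2 numbers, 3 with the small nucleolar RNA split as a block, and 2 without both libraries low in small nucleolar RNA, which leaves 1 Selk-/- library, assumed to vary like WT. Spi1, Irf8, Sall1, Runx1 and Cebpa kept their direction in each of 20 alternatives. Scaled to summed microglia markers, an alternative chosen after seeing the data, 3506 genes and 2 factors passed (Runx1 at 0.49 and Cebpa at 0.44), 2 factors had an unadjusted p under 0.05, 3 factors did not overlap between groups, and Irf5, Sall3, Mef2a and Mef2c turned to 0.11, 0.16, 0.23 and 0.016. The share of all genes without overlap on that scale was not counted. Mef2a was at 0.0024 with DESeq2 size factors and with DESeq2, 0.042 with limma-voom, 0.090 without the libraries titled with 2 numbers and -0.081 to 0.10 with each library left out; Sall3 was at -0.14 to 0.025. The cause of these differences was not tested. The titles of both groups hold the numbers 3 and 6, and no label says that a number pairs libraries. With these numbers as a replicate block over 4 libraries, an alternative chosen after seeing the data, 19 genes and 0 factors passed adjusted p 0.05, 2 factors had an unadjusted p under 0.05, and Sall3 and Mef2a turned to 0.073 and 0.12; same-numbered libraries deviated from their group means with a correlation of 0.051 over genes.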
